A study of Mus musculus with 6 samples.

Results

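The Rab GTPase genes of the mouse cortex were examined across cell types and genotypes. Members were the genes whose symbol is Rab followed by a number and, in some, a letter, which gave 58 of the 17418 genes of the table, and each of the 58 had at least 1 UMI. Single cells were profiled with InDrop, in which each cell is enclosed in a droplet with a barcoded bead and every captured polyA transcript is tagged with a random molecular barcode (UMI) that lets PCR copies be collapsed. Of the 6 mice, 3 were wild type (WT) of the strain FVB.129P2-Pde6b+ Tyrc-ch/AntJ and 3 were *Fmr1*-KO, from the line with the same FVB.129P2-Pde6b+ Tyrc-ch background and the Fmr1tm1Cgr/J allele, in which the gene of the RNA-binding protein FMRP is disrupted in all cells. All 6 were on postnatal day 5 and untreated, both sexes were used, and cells came from the papain-dissociated cortex of both hemispheres. Cells of WT 1, *Fmr1*-KO 1 and *Fmr1*-KO 2 were captured with V2 beads, and cells of WT 2, WT 3 and *Fmr1*-KO 3 with V3.8 beads.

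Rab proteins are small GTPases that give membranes their identity. In the GTP-bound state they sit on a membrane and recruit effectors that bud, move, tether or fuse vesicles, while guanine nucleotide exchange factors (GEFs) switch them on, GTPase-activating proteins (GAPs) switch them off, and GDP dissociation inhibitors (GDIs) carry them through the cytosol. In neurons they are known for the transport and release of synaptic vesicles, for the endosomes of dendrites and for growth of axons, and in glia for myelin traffic and phagocytosis.

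The summed counts per mouse ranged from 8070039 to 20677233 UMIs, with a median of 1688 to 4897 UMIs per cell. Of 18393 cells, 17280 remained after those labelled doublets were left out. Cell types are the authors' annotation, and 37 of 42 marker genes had their highest mean level in the subtype they mark, and *Lpl*, *Slc17a6*, *Olig2* and *Sox10* were among those higher in another. A barcode occurred in 2 or more libraries of the same mouse in 1975 cases, which took in 4561 cells (24.8%), and in 1795 of them (90.9%) all cells with the barcode had the same subtype. Such cells may be 1 cell counted more than once, so results were also computed without them, and 341 barcodes were shared between mice. *Fmr1* itself was at 68.4, 74.1 and 72.5 CPM over all cells in the WT mice and at 17.2, 19.9 and 16.1 CPM in the *Fmr1*-KO mice, so the level matched the label in each mouse. CPM are a gene's UMIs scaled to a common total over all genes, summed over the cells of a mouse and subtype, and InDrop counts 3′ ends, so the value does not scale with transcript length. The tests compare mice, not cells.

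Rab transcripts were found in all 15 subtypes that had at least 10 cells in 3 or more mice. Border_Macrophages (12 cells), Ms4a7_high (45 cells) and Tcells (16 cells) had fewer and were left out of the comparison of subtypes. Summed over the 58 genes, the mean over all mice was highest in oligodendrocytes, at 6349.7 ± 309 CPM (SD, n = 6), and lowest in fibroblasts, at 3835 ± 219 CPM (SD, n = 3), and in ganglionic eminence precursors, at 3896 ± 243 CPM (SD, n = 6). Astrocytes_1, the larger astrocyte subtype, held 4901 ± 69.9 CPM (SD, n = 6), and excitatory neurons 5977 ± 1082 CPM (SD, n = 6). The order depended on the bead version: in the 3 mice with V3.8 beads excitatory neurons, at 6834 to 7049 CPM, lay above oligodendrocytes, at 6515 to 6615 CPM. Members with a mean of at least 125 CPM in each of the 15 subtypes included *Rab14*, *Rab18* and *Rab1* (*Rab1a*). *Rab14*, of recycling and Golgi endosomes, ran from 326 CPM in fibroblasts to 570.1 CPM in oligodendrocytes. *Rab18*, of the ER and lipid droplets, ran from 125 CPM in microglia to 270.3 CPM in oligodendrocytes. *Rab1*, which moves cargo from the ER to the Golgi, ran from 183 CPM in ependymal cells to 412 CPM in microglia. At the other end, *Rab44* had 2 UMIs in all, *Rab19* had 8, *Rab25* had 9, *Rab17* had 15, *Rab38* had 41, *Rab26* had 58 and *Rab42* had 94, which is too few to compare subtypes.

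A member was called led by a subtype when the mean level there was at least 2 times that of the next subtype and rested on at least 20 UMIs. This held for 10 of the 58 genes (17.2%), against 19.1% of the 17374 genes with a UMI, a share near that of genes at large. In 7 of the 58 the leading subtype was also highest in every mouse, against 13.3% of all genes, and in 4 of the 58 every mouse of the leading subtype lay above every mouse of each other subtype, against 10.5%. The subtypes were clustered on these same cells, so these levels are a description and were not tested.

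**Figure D1:**
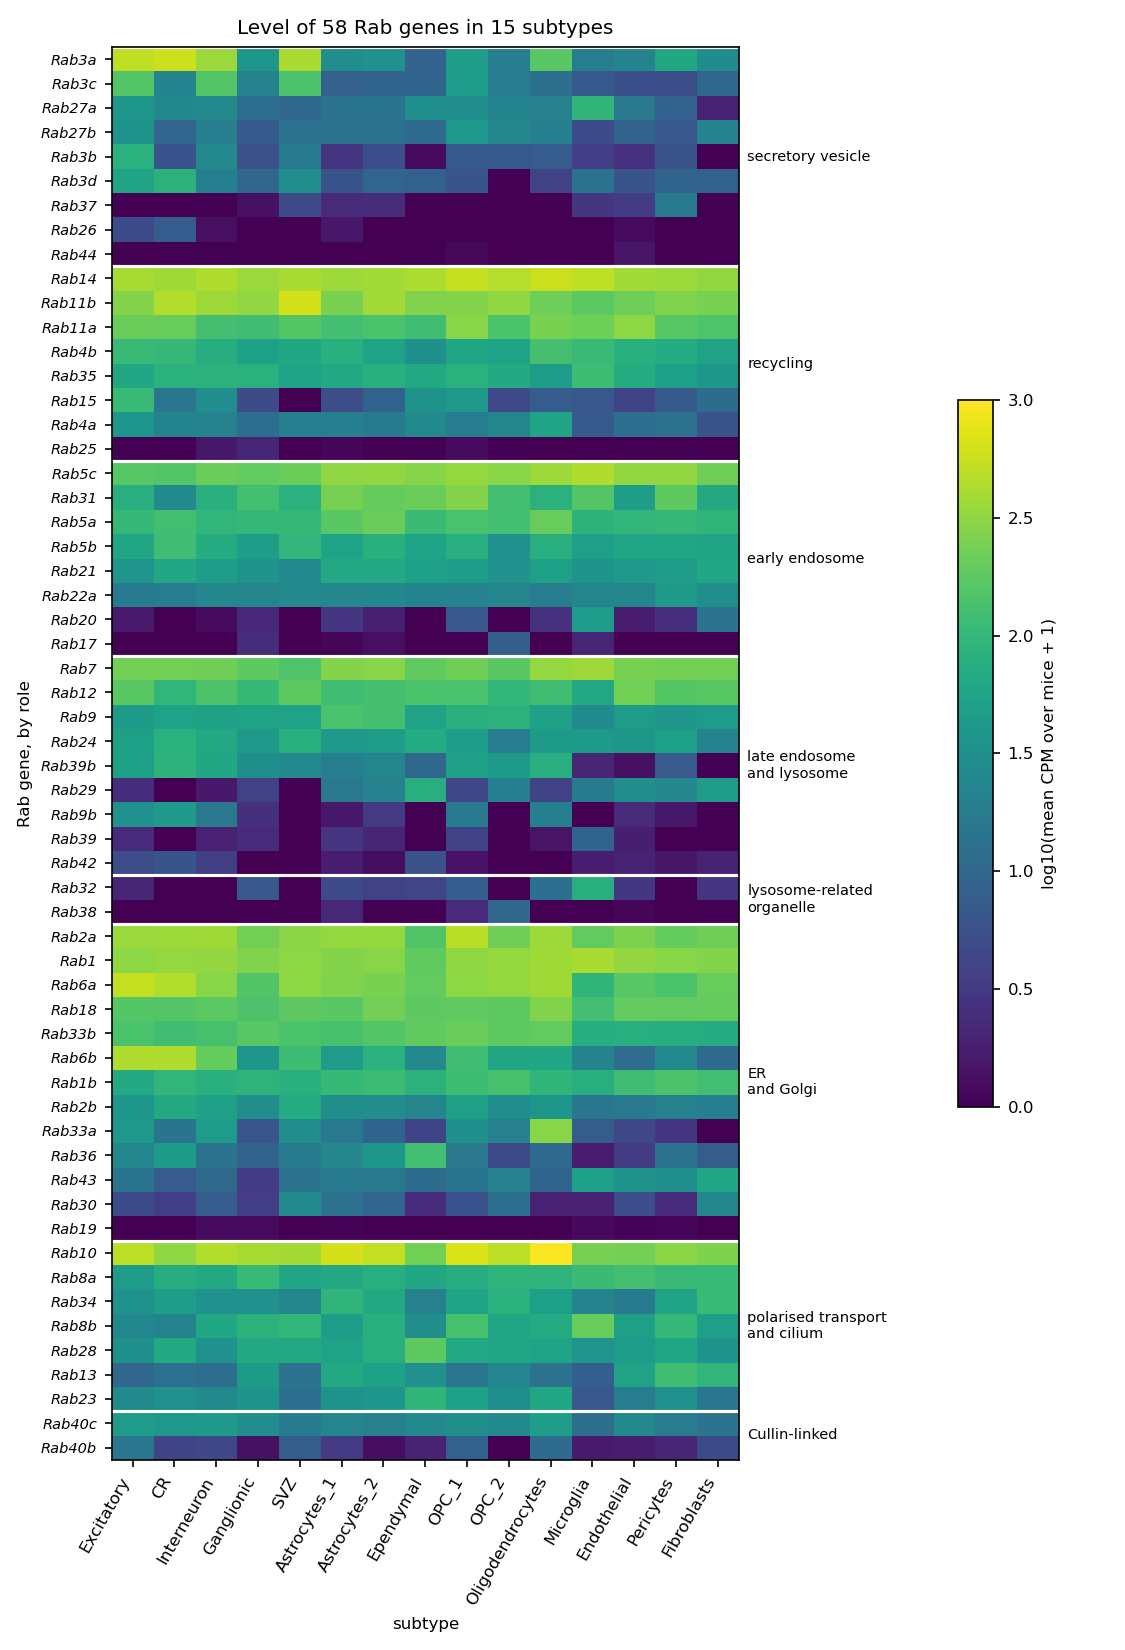
Mean level of each of the 58 Rab genes (rows, grouped by role) in 15 subtypes (columns), as log10 of the mean CPM over mice plus 1. *Rab10*, *Rab14* and *Rab5c* are bright in every column, *Rab3a* and *Rab6b* are brightest in the CR and excitatory columns, and *Rab33a* stands out in oligodendrocytes at 290.0 CPM.

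Among the Rabs of secretory vesicles, the Rab3 genes had their highest levels in neurons. *Rab3a*, the main Rab of synaptic vesicles, had its highest levels in Cajal-Retzius cells (CR), the early Reln-producing neurons, with 587 ± 82.0 CPM (SD, n = 5), and in excitatory neurons, with 519.6 ± 168 CPM (SD, n = 6). The lowest, median and highest mouse were at 339, 499.5 and 703 CPM in excitatory neurons, at 266, 354 and 448 CPM in interneurons and at 19.5, 40.2 and 53.8 CPM in the dividing ganglionic precursors. The ranges of excitatory neurons and interneurons overlapped, and both lay above each ganglionic value. Outside neurons the highest level was in oligodendrocytes, with 169 ± 45.7 CPM (SD, n = 6), and the lowest in ependymal cells, with 7.67 CPM from 7 UMIs.

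*Rab3b*, a close paralog of *Rab3a*, was led by excitatory neurons. The lowest, median and highest of the 6 mice were at 53.5, 90.2 and 98.3 CPM there and at 12.4, 23.5 and 40.2 CPM in interneurons, the next subtype, with no overlap. By mouse the excitatory values were 91.2, 98.3 and 91.7 CPM in WT and 53.5, 70.1 and 89.1 CPM in *Fmr1*-KO, each *Fmr1*-KO value below each WT value, and it had a log2 fold change of -0.28 ± 0.18 (SE, edgeR, adjusted p = 0.999). Of all genes tested in excitatory neurons, 2.84% were lower in *Fmr1*-KO without overlap. *Rab3c* was alike in both, with 156 ± 32.4 CPM (SD, n = 6) in excitatory neurons and 157 ± 43.4 CPM (SD, n = 6) in interneurons, but stood at only 21.4 CPM in CR cells. *Rab3d*, known from exocrine granules, was highest in CR cells (84.6 CPM) and excitatory neurons (54.9 CPM), whose ranges of 51.2 to 128 and 45.8 to 69.1 CPM overlapped. *Rab15*, a Rab of recycling endosomes, was also led by excitatory neurons, with 91.5, 106 and 114 CPM against 28.6, 40.8 and 50.1 CPM in the main oligodendrocyte precursor subtype (OPC_1). Only *Fmr1*-KO 1 had an ependymal value, 100.6 CPM, inside the excitatory range, from a sum of 12 cells. *Rab37*, of secretory granules, was led by pericytes, with 5.14, 17.1 and 29.2 CPM from 46 UMIs. The next subtype, SVZ (migrating neurons of the subventricular zone), held a single UMI, so this lead over it rests on very few counts.

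Among the 15 subtypes microglia led 4 members. *Rab32*, of lysosome-related organelles, was at 106, 70.4 and 79.3 CPM in the WT mice and at 54.3, 57.5 and 85.5 CPM in the *Fmr1*-KO mice. The next subtype, oligodendrocytes, reached at most 20.7 CPM, and every microglial value lay above every value of the other 14 subtypes. *Rab20*, which acts on maturing phagosomes, was at 57.2, 26.7 and 42.1 CPM in the WT and at 49.1, 61.6 and 32.6 CPM in the *Fmr1*-KO mice. The next values were in fibroblasts, at a mean of 13.0 CPM from 3 mice and 10 UMIs, and all lay below the microglial ones. *Rab27a*, needed for release of exosomes and lysosome-related organelles, was at 67.2, 81.9 and 138 CPM in the lowest, median and highest mouse, a range that 1 mouse reached in excitatory neurons and 1 in OPC_2. *Rab39*, of the phagosome and autophagosome, was at 0, 8.57 and 16.4 CPM from 21 UMIs, with WT 1 at 0. The paralog *Rab27b* had 11 UMIs in microglia, so *Rab27a* gave 96.2% ± 2.41 of the UMIs of the pair there (SD, n = 6) and 48.1% ± 19.2 in excitatory neurons. Without reaching the 2-fold mark, *Rab8b* (202 against 132 CPM in OPC_1), *Rab5c* of early endosomes (442 against 363 CPM in oligodendrocytes) and *Rab7* of late endosomes (367 against 334 CPM in oligodendrocytes) also had their highest mean in microglia. The ranges overlapped for *Rab5c* and *Rab7* and did not for *Rab8b*, whose lowest microglial value was 175 CPM. Of the subtypes left out for few cells, Ms4a7_high and Border_Macrophages held higher pooled levels of several of these genes than microglia did. In Ms4a7_high *Rab32* was at 252 CPM (28 UMIs), *Rab39* at 54.0 CPM (6 UMIs), *Rab8b* at 468 CPM (52 UMIs), *Rab5c* at 712 CPM (79 UMIs) and *Rab7* at 477 CPM (53 UMIs), while *Rab27a* had 2 UMIs and *Rab20* had 1. In Border_Macrophages *Rab32* was at 251 CPM (6 UMIs), *Rab27a* at 335 CPM (8 UMIs), *Rab20* at 83.7 CPM (2 UMIs), *Rab8b* at 377 CPM (9 UMIs) and *Rab7* at 544 CPM (13 UMIs). The lead of microglia is thus one among the 15 subtypes only.

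Oligodendrocytes led 1 member, by a wide margin. *Rab33a*, a Golgi Rab that lies on the X chromosome, was at 311, 259 and 377 CPM in the WT mice and at 234, 257 and 301 CPM in the *Fmr1*-KO mice. Interneurons came next at 43.5 ± 8.66 CPM (SD, n = 6), a 6.67-fold lower mean, and OPC_1, the precursor population, was at 30.7 ± 7.89 CPM (SD, n = 6). Of the UMIs of *Rab33a* and *Rab33b* together, *Rab33a* gave 63.2% ± 14.3 in oligodendrocytes and 16.2% ± 10.7 in OPC_1 (SD, n = 6). *Rab10*, which serves polarised exocytosis, was also highest in oligodendrocytes, at 727, 996 and 1082 CPM in the lowest, median and highest mouse, against 672 ± 49.5 CPM (SD, n = 6) in OPC_1. The 2 ranges overlapped through WT 1, at 727 CPM. OPC_1 in turn had the highest mean of *Rab2a*, an ER and Golgi Rab, at 482 ± 76.8 CPM (SD, n = 6), and of *Rab31*, at 276 ± 19.7 CPM (SD, n = 6), which works between the trans-Golgi network and endosomes and reached 245 ± 17.3 CPM (SD, n = 6) in Astrocytes_1.

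Ependymal cells, which bear motile cilia, led *Rab28* and *Rab36*. *Rab28*, linked to the base of cilia, was at 235, 130.0 and 122 CPM in the WT and 251, 201 and 141 CPM in the *Fmr1*-KO mice, against 75.5 ± 13.3 CPM (SD, n = 6) in Astrocytes_2. It was highest in each of the 6 mice, though 1 SVZ value reached 157 CPM. *Rab36*, a Golgi and lysosome positioning Rab, was at 122 ± 55.2 CPM (SD, n = 6) in ependymal cells and 42.4 ± 20.9 CPM (SD, n = 5) in CR cells, with overlap. *Rab23*, which acts at the primary cilium in Hedgehog signalling, had its highest mean in ependymal cells too, but from 10.8 to 151 CPM, a range that overlapped those of most other subtypes. *Rab29*, a partner of the kinase LRRK2, was at 77.5 ± 19.6 CPM (SD, n = 6) against 45.1 ± 4.85 CPM (SD, n = 3) in fibroblasts, and 1 OPC_2 value, 76.7 CPM, lay in its range. In the vessel wall *Rab13*, of tight junctions, had its highest mean in pericytes, with 120.0 ± 27.5 CPM (SD, n = 6), and was at 6.94 CPM in microglia. Fibroblasts came next at 93.9 ± 45.0 CPM (SD, n = 3), with overlap. *Rab11a* had its highest mean in endothelial cells, with 309 ± 39.1 CPM (SD, n = 6). It was at 295 ± 27.0 CPM (SD, n = 6) in OPC_1, with overlap.

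**Figure D2:**
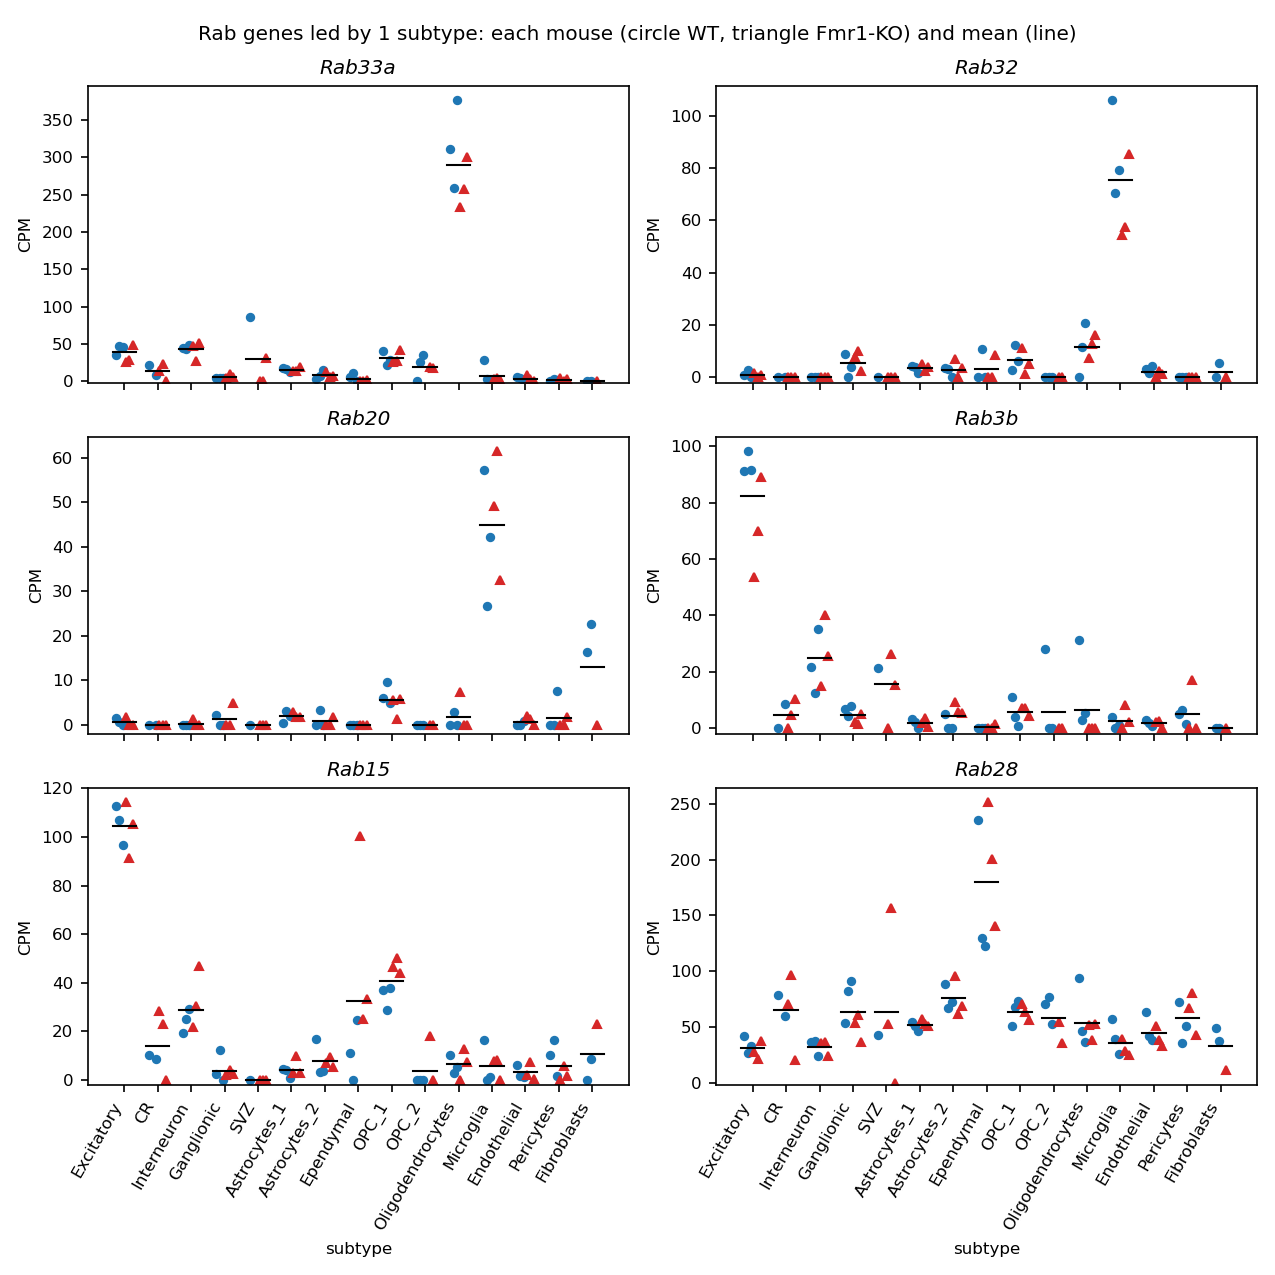
Level (CPM, linear axis) of 6 Rab genes in each of 15 subtypes, with 1 point per mouse (circles WT, triangles *Fmr1*-KO) and a line at the mean. The points of oligodendrocytes for *Rab33a*, of microglia for *Rab32* and *Rab20* and of excitatory neurons for *Rab3b* lie above those of the other 14 subtypes.

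The 4 genes whose leading subtype did not overlap with any other of the 15 are shown by their promoters, with 250 bases before the start, from RefSeq on GRCm38.p6 (mm10) and in the sense of the gene. They are chrX:48519035-48519284 on the + strand, chr4:108878820-108879069 on the + strand, chr10:10558208-10558457 on the - strand and chr8:11478641-11478890 on the - strand. Capitals mark the letters GAGGAA, a core that ETS factors bind, or GGGCGG, the GC box of Sp factors, on either strand.
Rab33a: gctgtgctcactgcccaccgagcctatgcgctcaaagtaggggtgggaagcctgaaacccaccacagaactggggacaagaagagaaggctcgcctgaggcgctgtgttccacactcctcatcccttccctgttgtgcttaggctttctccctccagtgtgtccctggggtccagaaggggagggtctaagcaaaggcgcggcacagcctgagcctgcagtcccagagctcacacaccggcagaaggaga
Rab3b: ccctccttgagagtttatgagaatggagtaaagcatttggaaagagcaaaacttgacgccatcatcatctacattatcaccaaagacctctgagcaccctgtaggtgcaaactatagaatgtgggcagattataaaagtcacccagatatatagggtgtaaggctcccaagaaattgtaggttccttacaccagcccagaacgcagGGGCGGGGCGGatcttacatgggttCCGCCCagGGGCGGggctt
Rab32: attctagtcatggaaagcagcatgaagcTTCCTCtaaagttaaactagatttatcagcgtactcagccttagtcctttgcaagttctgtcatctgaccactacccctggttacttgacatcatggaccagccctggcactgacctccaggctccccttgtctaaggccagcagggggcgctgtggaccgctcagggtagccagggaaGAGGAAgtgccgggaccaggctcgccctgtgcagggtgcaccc
Rab20: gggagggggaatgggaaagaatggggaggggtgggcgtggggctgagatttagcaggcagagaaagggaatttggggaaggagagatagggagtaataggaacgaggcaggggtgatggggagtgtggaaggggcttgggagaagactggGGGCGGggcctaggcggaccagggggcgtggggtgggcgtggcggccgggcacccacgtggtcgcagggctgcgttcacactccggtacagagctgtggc
GAGGAA was present 2 times for *Rab32*, 222 and 43 bases before the start, and not in the windows of the other 3. GGGCGG was present 4 times for *Rab3b*, within the last 44 bases, where the first 2 matches share 1 base, and 1 time for *Rab20*, 100 bases before the start. The window of *Rab33a* held neither. Among the 250-base windows of all 32851 start sites GAGGAA or its complement was present in 23.3% and GGGCGG or its complement in 32.7%, and among the 60 start sites of the 48 Rab genes with an entry in 8 and in 40. The Rab windows had a median of 60.2% G and C and 15 CpGs, against 52.4% and 6 in all windows. The letters were chosen with the levels known, and a match is not a bound site.

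Several Rabs come as paralogs that are close in sequence, and their shares of the UMIs of the pair shifted between subtypes. The Rab6 pair are Golgi Rabs of which *Rab6b* is known as the brain form. *Rab6b* gave 44.8% ± 3.72 of the UMIs in excitatory neurons, 40.7% ± 3.15 in interneurons, 20.8% ± 9.77 in ganglionic precursors, 13.6% ± 3.15 in Astrocytes_1 and 5.80% ± 4.83 in endothelial cells (SD, n = 6 each). Excitatory neurons ranged from 40.6% to 49.9% and interneurons from 37.7% to 45.6%, which overlapped, and every mouse of both lay above every mouse of the 3 other subtypes named. The level of *Rab6b* itself was 443 CPM in CR cells, 438 CPM in excitatory neurons and 10.8 CPM in endothelial cells. *Rab9b* gave 41.9% ± 4.71 of the UMIs of *Rab9* and *Rab9b* in excitatory neurons and 0.395% ± 0.459 in Astrocytes_1, where *Rab9*, which returns receptors from late endosomes, was at 139 ± 12.6 CPM (SD, n = 6).

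For the recycling pair, *Rab11a* gave 59.1% ± 4.94 in endothelial cells, 55.3% ± 3.77 in microglia and 51.7% ± 6.60 in OPC_1, but 26.0% ± 6.87 in interneurons, where *Rab11b* held the rest. In the Rab8 pair, *Rab8b* gave 64.8% ± 5.36 in microglia and 28.2% ± 3.71 in endothelial cells. In the early endosome family *Rab5c* had the largest mean share in all 15 subtypes, from 37.9% ± 8.22 in CR cells (SD, n = 5) to 76.6% ± 2.68 in microglia, and *Rab5a* ranged from 15.0% in microglia to 33.9% in Astrocytes_2. The pairs *Rab2a* and *Rab2b*, and *Rab1* and *Rab1b*, kept their order in the mean of every subtype, with *Rab2a* at 80.1% to 93.9% and *Rab1* at 66.5% to 84.2%. Reads with more than 1 position were ignored by the authors, so the shares count molecules that could be told apart and can be lowered for a paralog with shared 3′ sequence.

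**Figure D3:**
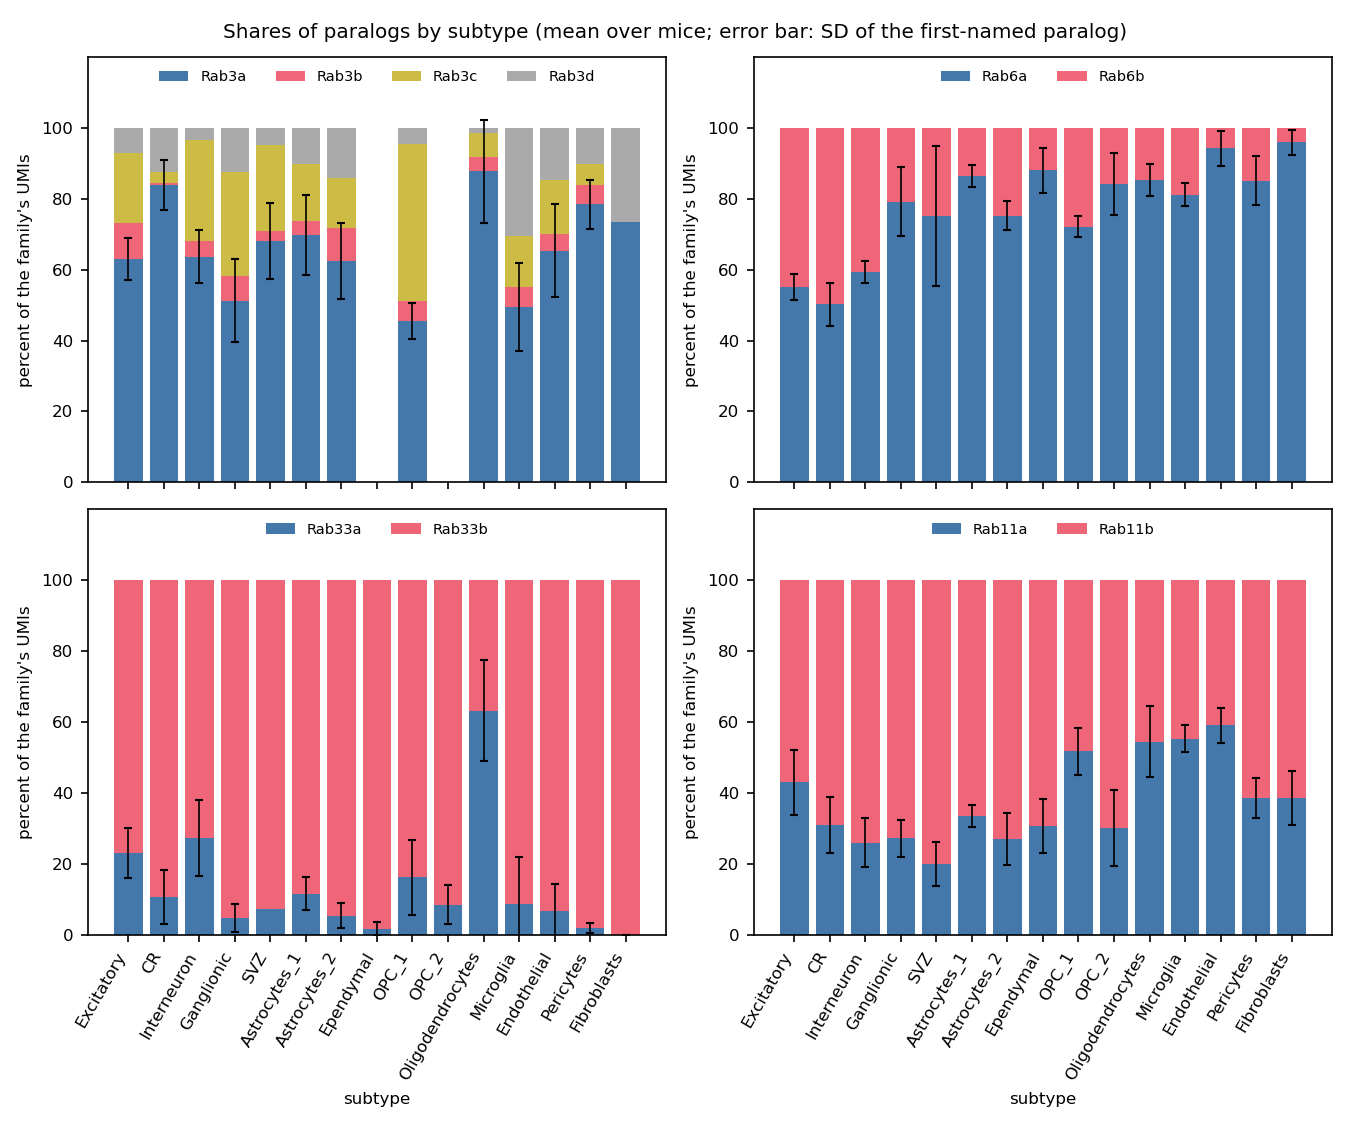
Share of each paralog in the UMIs of its family (stacked bars, mean over mice, percent) by subtype, with the SD of the first-named paralog as error bar. Bars are left out where no mouse had 10 UMIs of the family, and fibroblasts of the Rab3 family rest on 1 mouse. The second colour of the Rab6 panel, *Rab6b*, is widest in the CR, excitatory and interneuron bars. The mean share of *Rab33a* exceeds that of *Rab33b* only in oligodendrocytes, where WT 2 had the other order.

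No Rab gene differed between the genotypes past the thresholds of an adjusted p (FDR) under 0.01 and a log2 fold change of at least 0.20. A gene was tested in a cell type when 15% or more of that type's cells held a UMI of it, with edgeR over the 6 mice, with the bead version as a covariate, in all cells, in neurons together, in 7 other cell types and in 3 neuron subtypes. In these 12 fits 39 of the 58 members entered at least 1 test and 19 entered none. The number tested ran from 19 in pericytes to 33 in oligodendrocytes, and 0 were called. The background was low as well, with 0% of all tested genes called in 8 fits, 0.0208% in Astrocytes_1, 0.0245% in OPC_1, 0.0423% in oligodendrocytes and 0.0499% in ganglionic precursors. The call in Astrocytes_1, and in OPC_1, was *Fmr1* itself. At an unadjusted p under 0.05 the 278 pairs of a member and a fit gave 13 (4.68%), against 6.35% for all genes, and the lowest FDR of a member was 0.160. Those 13 pairs came from 6 genes, namely *Rab3a*, *Rab6b*, *Rab8b*, *Rab13*, *Rab18* and *Rab33b*.

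In neurons 3 of 22 members had p under 0.05 (background 16.6%), 2 of them lower in *Fmr1*-KO. *Rab3a* was at 314, 611 and 603 CPM in the WT mice and 272, 247 and 454 CPM in the *Fmr1*-KO mice, with a log2 fold change of -0.35 ± 0.10 (SE, edgeR, adjusted p = 0.160), and the groups overlapped. *Rab6b* was at 294, 400.5 and 396 CPM in the WT mice and 209, 219.6 and 339.5 CPM in the *Fmr1*-KO mice, with a log2 fold change of -0.34 ± 0.10 (SE, edgeR, adjusted p = 0.170), and also overlapped. Both genes are high in excitatory neurons, so fewer such cells and less RNA per cell cannot be told apart in the neuron sum. The share of excitatory cells among neurons was 56.8%, 75.3% and 49.5% in WT and 42.0%, 48.6% and 35.6% in *Fmr1*-KO mice. These are shares of cells, and the excitatory part of the summed counts also depends on the depth of each cell. With the same number of each neuron subtype drawn from every mouse, the log2 fold change of *Rab3a* was -0.14 and that of *Rab6b* was -0.0038 (edgeR, adjusted p = 1.00 for both), in fewer cells than the full comparison. That draw matched the number of cells, not their depth. Median depth per excitatory cell spanned 976 (WT 1) to 8588 UMIs (WT 3), and 991 (*Fmr1*-KO 2) to 5889.5 UMIs (*Fmr1*-KO 3). For interneurons it spanned only 1697 (WT 2) to 3023 UMIs (*Fmr1*-KO 1). The excitatory part of the drawn sum was thus not made equal, so the draw cannot separate the mix from RNA per cell. Within excitatory neurons *Rab3a* had a log2 fold change of -0.13 ± 0.12 (SE, edgeR, adjusted p = 0.999) and *Rab6b* a log2 fold change of -0.09 ± 0.12 (SE, edgeR, adjusted p = 0.999). Over all cells *Rab3a* was at 118, 143 and 116 CPM in the WT mice and 95.8, 99.6 and 99.1 CPM in the *Fmr1*-KO mice, each *Fmr1*-KO mouse below each WT mouse, with a log2 fold change of -0.31 ± 0.10 (SE, edgeR, adjusted p = 0.499), where 2 of 26 members had p under 0.05 (background 9.18%) and 3.78% of all genes were lower without overlap. The sum over all cells also mixes subtypes whose shares differed between mice, which holds for every comparison over all cells given here. The median over the 22 members in neurons was -0.09, and 16 of them were below 0, against 50.2% of all genes. This count also rests on the neuron sum, in which the share of excitatory cells differed. Fewer such cells and less RNA per cell cannot be told apart in it either.

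Over all cells *Rab8b* was at 67.7, 49.7 and 48.2 CPM in the WT mice and 74.7, 66.7 and 70.0 CPM in the *Fmr1*-KO mice, with a log2 fold change of 0.31 ± 0.11 (SE, edgeR, adjusted p = 0.501). Without *Fmr1*-KO 3 the fitted value was 0.072, and without WT 1 it was 0.54. The part of the mix of subtypes in this sum was not tested. In the glia *Rab8b*, of polarised exocytosis, and *Rab6b* were higher in *Fmr1*-KO without passing the threshold. *Rab8b* in Astrocytes_2 was at 66.3, 47.0 and 64.8 CPM in the WT mice and 86.2, 106 and 104 CPM in the *Fmr1*-KO mice, with no overlap and a log2 fold change of 0.70 ± 0.24 (SE, edgeR, adjusted p = 0.990), the only 1 of 24 members under 0.05 (background 4.26%). Markers of neurons summed to 57.6 to 609.8 CPM in the WT and 131 to 845 CPM in the *Fmr1*-KO mice in these cells, and 9 of the 10 genes had a higher *Fmr1*-KO mean. Markers of microglia, where *Rab8b* was highest, summed to 64.6 to 709 CPM in the WT and 76.9 to 272 CPM in the *Fmr1*-KO mice, and 0 of the 10 were higher in the *Fmr1*-KO mean. The part of either in the result was not tested. *Rab6b* in OPC_1 was at 107, 105 and 104 CPM in the WT mice and 141, 125 and 133 CPM in the *Fmr1*-KO mice, again with no overlap and a log2 fold change of 0.35 ± 0.13 (SE, edgeR, adjusted p = 0.947), where 2 of 22 members had p under 0.05 (background 4.24%). The neuron markers in OPC_1 summed to 223 to 792 CPM in the WT and 199 to 899 CPM in the *Fmr1*-KO mice, with 7 of 10 higher in the *Fmr1*-KO mean. Groups did not overlap, with *Fmr1*-KO higher, in 2 of 22 members in OPC_1 (background 2.33%) and in 2 of 24 in Astrocytes_2 (background 4.16%). In pericytes, microglia, oligodendrocytes and Astrocytes_1, 0 members had p under 0.05, with backgrounds of 3.29%, 3.12%, 4.4% and 4.72%.

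In endothelial cells 2 of 21 members had p under 0.05 (background 11%). *Rab13* was at 24.0, 72.5 and 56.9 CPM in the WT mice and 37.4, 33.5 and 90.4 CPM in the *Fmr1*-KO mice, with a log2 fold change of 0.63 ± 0.24 (SE, edgeR, adjusted p = 0.330). The values overlapped, and the log2 difference was 0.55 within V2 and 0.49 within V3.8. With no batch term the fitted value was 0.13. In ganglionic precursors *Rab18* was at 193, 132 and 163 CPM in the WT mice and 132, 137 and 119.5 CPM in the *Fmr1*-KO mice, with a log2 fold change of -0.43 ± 0.19 (SE, edgeR, adjusted p = 0.767), 1 of 20 members (background 6.39%). *Rab33b* accounted for 5 of the 13 pairs, in neurons, excitatory neurons (background 3.48%), interneurons (background 4.53%), endothelial cells and OPC_1. In neurons it was at 60.4, 194 and 176 CPM in the WT mice and 77.5, 115 and 216 CPM in the *Fmr1*-KO mice, and in excitatory neurons at 59.5, 189.7 and 163 CPM in the WT mice and 84.8, 133 and 203 CPM in the *Fmr1*-KO mice. In interneurons it was at 59.9, 118 and 199.8 CPM in the WT mice and 75.0, 120.5 and 223 CPM in the *Fmr1*-KO mice, and in endothelial cells at 30.0, 112 and 91.0 CPM in the WT mice and 41.3, 58.6 and 124 CPM in the *Fmr1*-KO mice. The groups overlapped in these 4, and the fitted log2 fold changes were 0.42, 0.50, 0.51 and 0.52. Without WT 1 they were 0.21 in neurons and 0.20 in excitatory neurons, without *Fmr1*-KO 2 they were 0.26 and 0.29, and without *Fmr1*-KO 3 they were 0.68 and 0.93. In OPC_1 it was at 68.8, 287 and 291 CPM in the WT mice and 131, 145 and 295 CPM in the *Fmr1*-KO mice, with a log2 fold change of 0.39 ± 0.17 (SE, edgeR, adjusted p = 0.947). Within V2, where 1 WT mouse stands against 2 *Fmr1*-KO mice, the log2 difference was 1.00, and within V3.8 it was 0.03, and the fitted value was 0.06 without WT 1 and 1.01 without *Fmr1*-KO 3.

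*Rab5a*, the Rab of early endosomes and of endocytosis at synapses, was followed in all 12 fits. Its log2 fold change was below 0 in 10 and above 0 in microglia and interneurons, and 0 passed the threshold or p under 0.05. Over all cells it was at 136, 154 and 173 CPM in the WT mice and 122, 110.4 and 140.4 CPM in the *Fmr1*-KO mice, with a log2 fold change of -0.21 ± 0.09 (SE, edgeR, adjusted p = 0.524) and -0.23 within V2 and -0.22 within V3.8. In Astrocytes_1 it was at 181, 172 and 203 CPM in the WT mice and 154, 150.4 and 172 CPM in the *Fmr1*-KO mice, each *Fmr1*-KO mouse below each WT mouse, with a log2 fold change of -0.17 ± 0.10 (SE, edgeR, adjusted p = 0.923), where 2 of 25 members and 3.88% of all genes were lower without overlap. In neurons it was at 82.0, 114 and 128 CPM in the WT mice and 86.1, 70.4 and 114 CPM in the *Fmr1*-KO mice, with a log2 fold change of -0.08 ± 0.12 (SE, edgeR, adjusted p = 0.743). The fits share cells, so the 10 directions are not separate observations. The 95% confidence intervals of the 22 members in neurons lay within -0.61 and 0.81 on the log2 scale and those of the 25 members in Astrocytes_1 within -0.46 and 0.43. Oligodendrocytes, with 24 to 108 cells per mouse, gave a median SE of 0.35, against 0.10 in Astrocytes_1, so differences of the size above were not detectable there.

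**Figure D4:**
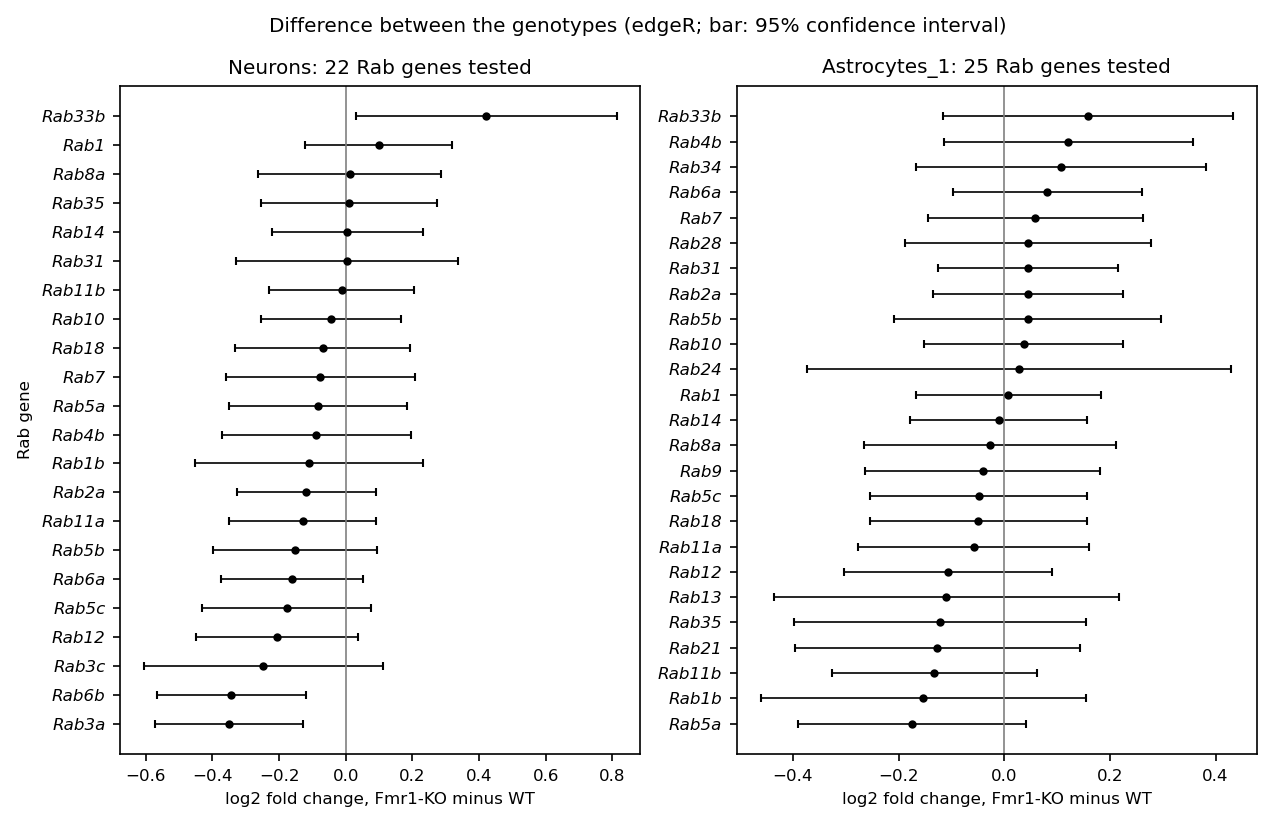
Log2 fold change of *Fmr1*-KO minus WT from edgeR for the 22 Rab genes tested in neurons (left) and the 25 tested in Astrocytes_1 (right), with 95% confidence intervals. The intervals of *Rab3a*, *Rab6b* and *Rab33b* leave out 0 in neurons before adjustment, and each interval in Astrocytes_1 holds 0.

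No gene of the proteins that act on Rabs passed the thresholds. Of 126 genes listed as GEFs (32), GAPs (35), effectors (51) or escort, prenylation and GDI proteins (8), 36 were tested over all cells and 30 in neurons, and 0 were called in any of the 12 fits. In neurons 0 of the 30 had p under 0.05, against 16.6% of all genes, with a median log2 fold change of -0.05. In 5 of the 30 each *Fmr1*-KO mouse lay below each WT mouse, against 4.76% of all genes and 0 of the 22 Rab genes. This count and the values that follow rest on the neuron sum, in which the share of excitatory cells differed between mice. A different mix of subtypes and less RNA per cell cannot be told apart in it. The smallest p in neurons belonged to *Tbc1d9*, a GAP, at 98.9, 97.4 and 112 CPM in the WT mice and 75.9, 71.2 and 97.4 CPM in the *Fmr1*-KO mice, with a log2 fold change of -0.27 ± 0.12 (SE, edgeR, adjusted p = 0.312). *Rims2*, an effector of Rab3 at the active zone, was at 73.5, 73.4 and 74.6 CPM in the WT mice and 67.3, 49.3 and 63.8 CPM in the *Fmr1*-KO mice, with a log2 fold change of -0.28 ± 0.14 (SE, edgeR, adjusted p = 0.338), with no overlap. Others with the smallest p in their list were *Rabggta* (log2 fold change 0.29), the GEF *Dennd5b* (0.11), the GAP *Evi5* (0.22) and the effector *Gcc2* (0.15), with FDR from 0.350 to 0.682.

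Whether the genotype effect differed between cell types was tested with the mouse as a block. The block takes out bead effects common to both cell types, but the fit had no term for a bead effect that differs between them. Between excitatory neurons and interneurons 0 of 25 members and 0% of 4190 genes were called, and at an unadjusted p under 0.05 the counts were 0 members and 2.51% of all genes. Between neurons and Astrocytes_1 0 of 28 members and 0% of 5547 genes were called, and 1 member, *Rab6b*, had p under 0.05 (background 6.33%). It was below the detection filter of Astrocytes_1 taken alone, and the difference, neurons minus Astrocytes_1, was -0.99 ± 0.40 (SE, edgeR, adjusted p = 0.651). In neurons *Rab6b* was also higher with V3.8 than with V2 beads, by a log2 difference of 0.51 ± 0.10 (SE, edgeR, adjusted p = 0.00292). The bead versions were not balanced over the genotypes. In this fit a bead effect particular to 1 cell type and a genotype effect cannot be told apart.

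Rab levels differed between the bead versions, and the calls were not spread evenly over cell types. In excitatory neurons the sum over the 58 genes was 5090.1, 5107 and 4791 CPM in the V2 mice WT 1, *Fmr1*-KO 1 and *Fmr1*-KO 2, and 6987, 7049 and 6834 CPM in the V3.8 mice WT 2, WT 3 and *Fmr1*-KO 3. In Astrocytes_1 the same sums were 4942, 4799.7 and 4889 CPM and 5002, 4857 and 4918 CPM, which overlapped. In the fit, 7 of 23 members in excitatory neurons were higher with V3.8 (background 10.1%) and 0 were lower (background 15.4%), by the thresholds used for genotype. The depth of these cells moved with the bead version, with a median of 976, 1041.5 and 991 UMIs per excitatory cell in the V2 mice and 2005, 8588 and 5889.5 in the V3.8 mice, while in Astrocytes_1 it was 3860.5, 4113 and 2225 and 2114.5, 7113 and 5163, which overlapped. In excitatory neurons 10 neuron markers summed to 8721, 8464 and 8751 CPM in the V2 mice and 13669, 12586 and 13595 CPM in the V3.8 mice. A rise with V3.8 was thus not particular to the Rab genes. There 10 astrocyte markers summed to 2562, 2335 and 2103 CPM with V2 and 2037, 1239 and 764 CPM with V3.8. The parts of depth and of the content of these cells in the result were not tested. The 7 members were *Rab2a*, *Rab3a*, *Rab6a*, *Rab7*, *Rab11a*, *Rab33b* and *Rab35*. *Rab3a* was at 371 ± 30.0 CPM with V2 and 668 ± 58.2 CPM with V3.8 (SD, n = 3 each), a log2 difference of 0.71 ± 0.12 (SE, edgeR, adjusted p = 0.00102). *Rab11a* was at 156 ± 3.76 CPM with V2 and 266 ± 4.96 CPM with V3.8, a log2 difference of 0.67 ± 0.13 (SE, edgeR, adjusted p = 0.00205). In interneurons 3 of 22 were higher (*Rab3a*, *Rab6a* and *Rab33b*, background 4.44%), and in Astrocytes_1 *Rab33b* was higher and *Rab11b* lower (1 of 25 each, backgrounds 9.51% and 9.29%).

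*Rab33b*, the ubiquitous Golgi and autophagy paralog of *Rab33a*, had a higher mean with V3.8 in all 12 fits and passed the thresholds in 10, the exceptions being microglia (background 0.997%) and pericytes (background 1.55%). The backgrounds of the others were 10.1% in all cells, 14.1% in neurons, 6.86% in endothelial cells, 1.54% in Astrocytes_2 and 1.12% in oligodendrocytes, beside those given. In ganglionic precursors it was at 69.9 ± 16.5 CPM with V2 and 264 ± 27.8 CPM with V3.8 (background 3.04%), a log2 difference of 1.88 ± 0.21 (SE, edgeR, adjusted p = 2.54e-08), and in OPC_1 at 115 ± 40.7 CPM with V2 and 291 ± 3.89 CPM with V3.8 (background 2.67%), a log2 difference of 1.48 ± 0.17 (SE, edgeR, adjusted p = 4.06e-05). In both, each V3.8 mouse lay above each V2 mouse, and the shares of *Rab33a* and *Rab33b* carry this difference. In oligodendrocytes *Rab33b* was at 72.7, 80.5 and 116 CPM with V2 and 346, 253 and 276 CPM with V3.8, while *Rab33a* was at 311, 234 and 257 and 259, 377 and 301 CPM. The bead version changed together with the collection batch, so the 2 cannot be told apart, and this comparison was added after the data were seen.

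**Figure D5:**
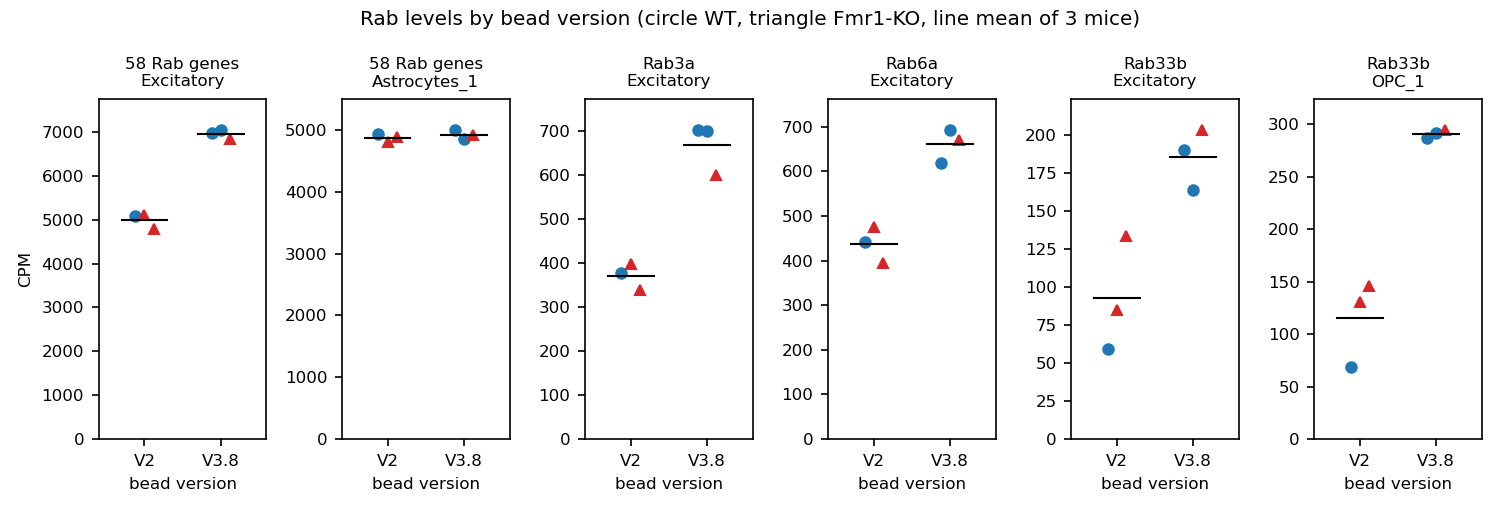
Level (CPM, axes from 0) by bead version, with 1 point per mouse (circles WT, triangles *Fmr1*-KO) and a line at the mean of 3 mice. The sum of the 58 Rab genes is separated by bead version in excitatory neurons and not in Astrocytes_1, and *Rab3a*, *Rab6a* and *Rab33b* are higher with V3.8 in the subtypes shown.

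On mm10 the exons of 11 of the 58 members overlap an exon of another annotated gene on the opposite strand, among the named ones *Rab3a* (with *Mpv17l2*), *Rab3b* (*8030443G20Rik*), *Rab5a* (*Pp2d1*), *Rab6a* (*Mrpl48*), *Rab7* (*Gm5577*), *Rab10* (*Rab10os*) and *Rab2b* (*Tox4*), and 3 overlap 1 on the same strand (*Rab4b*, *Rab26* and *Rab43*). Whether counting used the strand is not given in the sources used here, so reads of these neighbours cannot be told apart. *Rab3a* lies at chr8:70754679-70758677, *Rab6b* at chr9:103111787-103185276, *Rab5a* at chr17:53479234-53507680, *Rab33a* at chrX:48519285-48530232 and *Rab33b* at chr3:51483920-51496232.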

How the data were processed

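The 17 InDrop libraries came from the cortex of 6 mice. Per the study's methods, the authors aligned reads to mm10 with TopHat2 2.0.14, assigned them to RefSeq genes with ESAT, which left multimapped reads aside, and kept barcodes of at least 700 UMIs. The deposited values are raw UMI counts per gene and cell, with the authors' subtype labels. Here doublets were left out, counts were summed per mouse and subtype, and levels are CPM of these sums. Genotypes were compared with edgeR 4.0.16 in R 4.3.3 (quasi-likelihood test, TMM, bead version as covariate), with Benjamini-Hochberg adjustment over all genes tested. The fit was tested on simulated data with 200 genes changed by 1 on the log2 scale and recovered 99.5% of them in neurons and 28.0% in oligodendrocytes. Alternatives included DESeq2 1.42.0, other filters, thinning to 700 UMIs and leaving out each mouse. Genes named with values were *Rab5a*, members led by 1 subtype, in each fit up to 3 members with the smallest p if under 0.05, paralog pairs, and up to 2 regulators per list with the smallest p in neurons. Some genes that this rule names are not reported here. The other members with levels, the promoters, the motifs and the bead comparison were chosen after values were seen. The members and lists were chosen with earlier results of these data known.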

Additional observations from a re-analysis of the deposited data

Results flagged for a closer look

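In microglia *Rab27a* of WT 2 was at 138 CPM, far from the other 5 mice at 67.2 to 87.5 CPM. It was the only value of 24 groups of mice examined to stand apart by Dixon's criterion, and chance flags about 1 in 20 groups.

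*Rab31* went opposite ways in a pair of subtypes. Each *Fmr1*-KO mouse lay above each WT mouse in Astrocytes_2, with a log2 fold change of 0.24 (edgeR, adjusted p = 0.99), and below each WT mouse in interneurons, with -0.31 (edgeR, adjusted p = 0.998). Among all genes tested, 4.16% were higher without overlap in Astrocytes_2 and 4% were lower without overlap in interneurons. The pair was picked out by looking over all tested members and cell types. Neither passed the threshold, and the difference between the subtypes was not tested.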

How the results depend on the processing

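The count of Rab genes that differed between genotypes was 0 under all 17 settings, DESeq2 and an FDR under 0.05 included, and so was that of the regulators and effectors. The count of members led by 1 subtype was 10, and 6 with cells thinned to 700 UMIs, where *Rab27a*, *Rab28*, *Rab37* and *Rab39* were lost. It was 9 without cells sharing a barcode (*Rab39* lost), 9 with UMIs pooled over cells (*Rab27a* lost), 11 in WT mice only, 10 to 11 with each mouse left out, 14 with at least 30 cells per mouse and 15 at 1.5 times the next subtype. The log2 fold change of *Rab33b* turned without a batch term, to -0.0057 in endothelial cells, -0.067 in neurons and -0.14 in OPC_1. With the replicate number as a block it was -0.031 in neurons and -0.053 in OPC_1. Without a batch term *Rab33b* was at 0.088 in excitatory neurons and 0.15 in interneurons, *Rab13* in endothelial cells at 0.13 (0.12 with the block) and *Rab3a* in neurons at -0.64 (-0.63 with the block). With the block *Rab6b* in neurons was at -0.52 and *Rab33b* at 0.0013 in endothelial cells, 0.13 in excitatory neurons and 0.18 in interneurons. The numbers do not pair the mice, since same-numbered mice deviated together only for numbers 1 and 3, which share a bead version. *Rab5a* in neurons was at 0.024 without cells sharing a barcode. With each mouse left out in turn it ranged from -0.54 to 0.30 in endothelial cells, from -0.038 to 0.26 in interneurons, from -0.15 to 0.56 in microglia and from -1.13 to 0.0071 in pericytes. The sign turned without *Fmr1*-KO 3 in endothelial cells (0.30) and microglia (-0.15), and without WT 1 in interneurons (-0.038) and pericytes (0.0071). The causes were not tested. In simulated data 28.0% of genes changed by 1 on the log2 scale were recovered in oligodendrocytes and 99.5% in neurons. Smaller changes and a difference between bead versions were not simulated, so these shares do not apply to smaller differences.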
